A study of Mus musculus with 4 samples.

Results

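Expression in mouse embryonic stem cells that expressed constitutively active Akt, a protein kinase, was compared with expression in control cells, both grown in medium with leukemia inhibitory factor (LIF). Both came from E14tg2a, a mouse embryonic stem cell line kept without a feeder layer, and both received LIF at 3000 U/ml. The comparison was chosen by the array labels and sets 1 array, titled Akt12, against 1 array titled Control, which are 2 of the 4 arrays in the series. The other pair came from the same lines 4 days after LIF was removed. It is used below to show which differences were also seen on separate arrays. That pair also enters the common scale of the arrays, the choice of probe set and a model over all 4 arrays. The series title puts the question as the effect of LIF on embryonic stem cells that overexpress Akt. The sources used here do not give whether 12 is a clone number, which Akt gene or species the active form came from, or whether control cells had an empty vector. With 1 array a side, no difference between the lines with LIF has a replicate check, and a difference of 1 clone from its parent line cannot be told apart from an effect of Akt.

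Akt is a serine/threonine kinase that is recruited to the membrane and activated when phosphoinositide 3-kinase makes its lipid product in response to insulin, growth factors or LIF. Active Akt phosphorylates FOXO transcription factors, glycogen synthase kinase and regulators of the mTOR complex, and so acts on survival, growth and metabolism. In mouse embryonic stem cells, LIF keeps the undifferentiated state through STAT3, and active Akt is known to be able to keep that state when LIF is absent.

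Each array gave 1 intensity per probe set, a group of short probes for 1 transcript. Intensities were brought to a common scale by quantile normalization over the 4 arrays, and any value below the 40th percentile, 15.8, was raised to that floor. Of 8251 genes on the array, 5938 exceeded that floor with LIF in either line and are called measured. In Akt cells, 208 of them (3.5%) were at least 2-fold higher than in control cells, and 216 (3.64%) were at least 2-fold lower. Together these were 424 genes, or 7.14%. Where 1 of both values sits at the floor the fold is a lower limit, written "at least", as for 41 of the higher and 52 of the lower genes. Scaling on the hybridization controls, transcripts added to each sample before it is put on the array, moved the median of all genes from 0.01 to 0.13 on the log2 scale. That scaling gave 291 genes higher and 169 lower. At least 4-fold differences numbered 19 upward and 24 downward. Among the 5312 genes above the floor on both arrays, the SD of the log2 difference was 0.54, while probe sets of the same gene differed from their gene's mean with an SD of 0.36 over 847 genes. The depth of an array cannot be counted, and the number of arrays limits the precision.

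**Figure D1:**
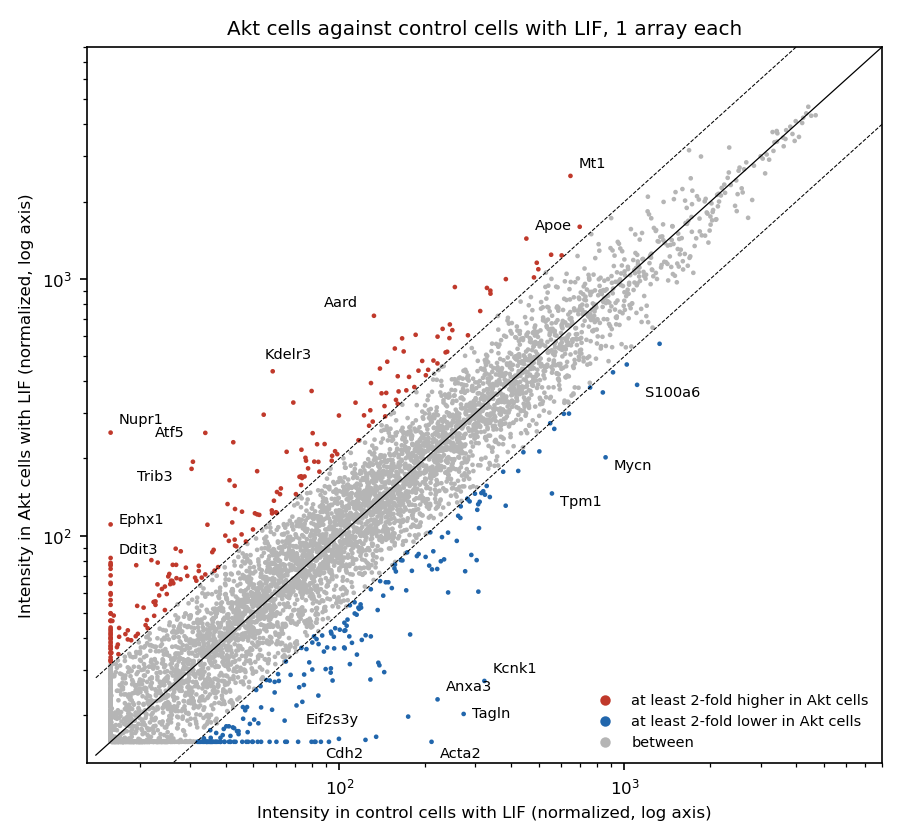
Intensity of each measured gene in Akt cells (vertical, log axis) against control cells (horizontal, log axis), both with LIF and after normalization, 1 point per gene, with the genes that are at least 2-fold different in colour. Most genes lie near the line of equal intensity, Tagln and Acta2 lie far below it and Nupr1 and Atf5 far above it.

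The Akt probe sets were not higher in Akt cells. Akt1, which encodes a widely expressed form of the kinase, had an intensity of 77.8 in control cells with LIF against 71.0 in Akt cells, and of 112 and 71.6 without it. Akt2 was at 33.6 in control cells with LIF and at the floor in Akt cells, at least 2.13-fold lower. Since the form of Akt that was introduced is not given, whether these probe sets read it cannot be told, and they give no check of the label.

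The largest differences downward in Akt cells included genes for proteins of the contractile actin cytoskeleton. Of 32 measured genes in a list of actin cytoskeleton genes and targets of serum response factor (SRF), a transcription factor whose coactivators are held back by free actin monomers, 13 were at least 2-fold lower (40.6%, against 3.64% of all measured genes) and 0 were at least 2-fold higher. That list was drawn up after the values had been seen, so its counts are a description. The median over its 32 members was -0.40 on the log2 scale, with a range of -0.60 to -0.26 over the alternative scalings, floors and choices of probe set. In bulk RNA, fewer cells of a type and less RNA per cell cannot be told apart, here and in every result that follows.

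Tagln, which encodes the actin-binding protein transgelin of smooth muscle, had an intensity of 273 in control cells against 20.2 in Akt cells with LIF. The gap was 13.5-fold, and without LIF the values were 1318 and 79.5. Thus both Akt arrays were below both control arrays. Acta2, smooth muscle alpha-actin, stood at 211 in control cells and at the floor in Akt cells, at least 13.3-fold lower, with 904 and 69.0 without LIF. Acta1, skeletal muscle alpha-actin, was 6.15-fold lower, at 16.2 against 99.7, and its levels without LIF were 88.2 and 1114. In all 3 genes the control level was higher without LIF than with it, and the Akt level without LIF stayed under the control level with LIF.

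Further members were in the same order. Cnn2, a calponin that binds actin and tropomyosin, read 307 in control cells and 60.6 in Akt cells. Tpm1, a tropomyosin that lies along the actin filament, read 557 and 146, while its relative Tpm4 read 912 and 433. Myl9, a regulatory light chain of non-muscle and smooth muscle myosin, was at 65.5 in control cells and at the floor in Akt cells both with and without LIF. Cnn1, Fhl2, Cav1 and Ccn1 were likewise at the floor in Akt cells with LIF, with control levels between 36.9 and 53.2. Fhl1, a LIM-domain protein, was 2.97-fold lower, but a second probe set for it differed by only -0.10 on the log2 scale. Ccn2, a secreted matrix-associated protein, read 307 and 133.

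The abundant cytoplasmic actins did not show this difference. Actg1, cytoplasmic gamma-actin, had intensities of 3952 and 3447, a log2 difference of -0.20. For Actb, cytoplasmic beta-actin, 1 probe set gave a log2 difference of -0.33 and another gave 0.76. Vcl, the focal adhesion protein vinculin, was 1.84-fold lower, at 336 against 616. The ratio of the 3′ to the 5′ control probe sets for actin, a measure of how complete the labelled transcripts are, was 2.33 for control cells and 3.04 for Akt cells with LIF, while that for Gapdh was 3.03 and 3.05. The part of that difference in these results was not tested.

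Of the 13 lower actin and SRF genes, 12 were also at least 2-fold lower without LIF, where the background was 8.12% of 6009 genes, and the exception was Ccn2. A limma model of line and LIF as additive terms was fitted over all 4 arrays, with adjustment over 6258 genes. In it, 9 of the 13 passed an adjusted p threshold of 0.05 as lower in Akt cells. The 13 were picked by their difference with LIF, which the model also uses, so these p-values are no separate check. The same holds for every other gene named here by its difference with LIF. The log2 difference for Tagln in that model was -3.90 ± 0.32 (SE) with an adjusted p of 0.00164, and that for Acta2 was -3.72 ± 0.32 with the same adjusted p. The model counts the disagreement between the media as its error, with 1 residual degree of freedom, and the number of its calls depended strongly on the processing. It called 10 genes higher (0.16%) and 29 lower (0.463%) with the processing used here. It called 0 in either direction after scaling on the hybridization controls, where 247 and 210 genes had an unadjusted p under 0.05, and 0 with the floor at the 60th percentile, where 139 and 194 had.

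**Figure D2:**
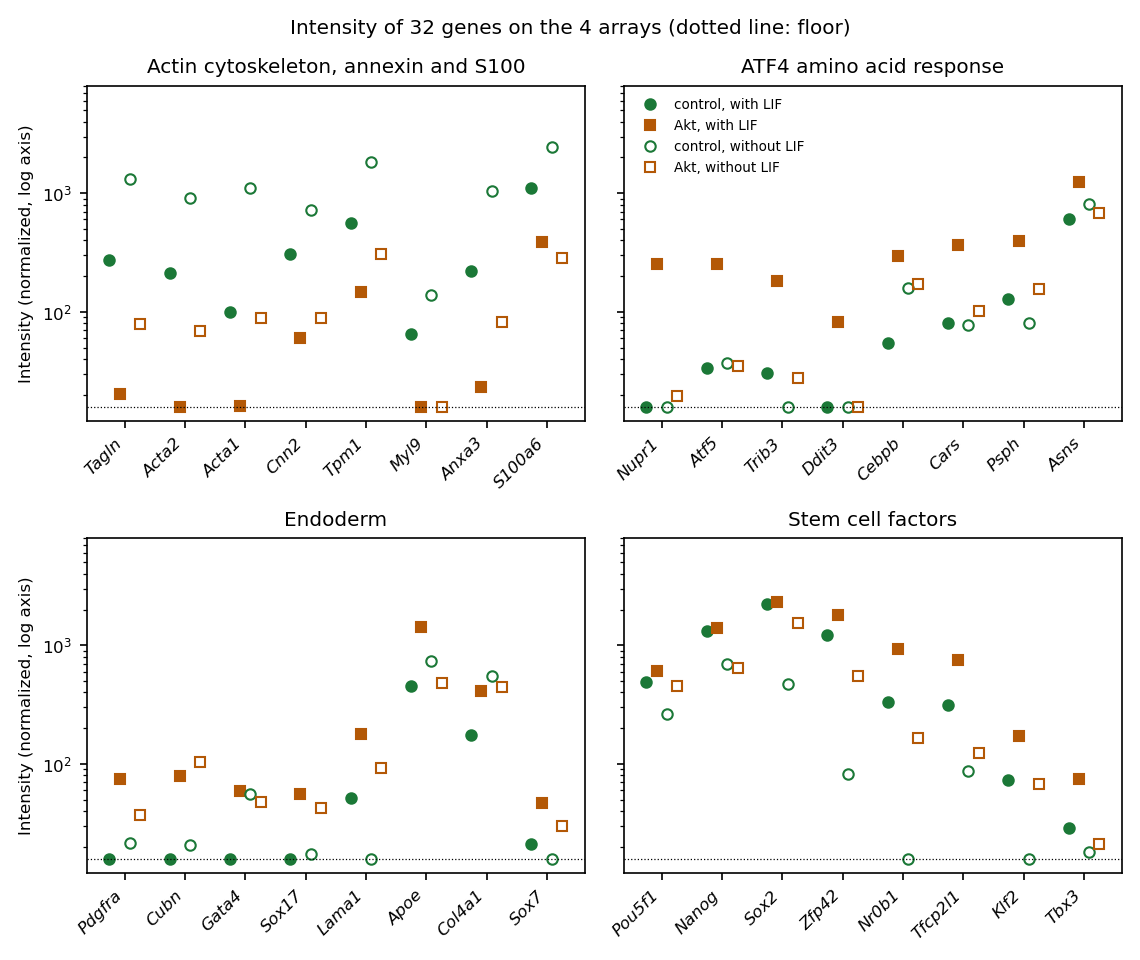
Normalized intensity (log axis) on each of the 4 arrays for genes of 4 groups, with circles for control cells, squares for Akt cells, filled symbols for arrays with LIF and open symbols for arrays without it, and the dotted line at the floor of 15.8. For Tagln, Acta2 and Cnn2 both squares lie below both circles, whereas for Atf5 and Ddit3 only the filled square stands apart.

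The promoter windows of some of these genes hold a CArG box, the element that SRF binds. RefSeq promoter windows of build GRCm38.p6 were searched over the 250 bases before each transcription start, and the box reads the same on both strands. A window was found for 11 of the 13 lower genes, and 5 of them (Acta1, Cnn2, Fhl1, Fhl2 and Myl9) held the box. By comparison, 4 of 17 other measured members of the list did, 1.59% of 4779 measured genes and 1.62% of 27025 genes with a window. SRF targets are often recognised by this box, so the list and the motif are not independent. The sequences of 4 of the lower genes are shown with the box in capitals, 5′ to 3′ on the strand of the gene. Acta1 lies on the minus strand at chr8:123894809-123894878, Cnn2 on the plus strand at chr10:79988514-79988583, Myl9 on the plus strand at chr2:156775273-156775342 and Fhl2 on the minus strand at chr1:43163962-43164022.
Acta1: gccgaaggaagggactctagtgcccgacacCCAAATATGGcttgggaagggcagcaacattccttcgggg
Cnn2: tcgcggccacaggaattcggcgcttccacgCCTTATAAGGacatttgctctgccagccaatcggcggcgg
Myl9: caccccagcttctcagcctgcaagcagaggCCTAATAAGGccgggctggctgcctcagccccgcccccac
Fhl2: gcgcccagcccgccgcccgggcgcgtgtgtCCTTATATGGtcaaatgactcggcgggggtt
The box ends 64 bases before the start in Acta1, 47 in Cnn2, 152 in Myl9 and 22 in the Fhl2 window shown. Another Fhl2 window, with its match at chr1:43196818-43196887, held a box that ends 87 bases before its start. A match of letters is a description and does not show that SRF binds there.

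Several calcium-binding and adhesion genes were lower in Akt cells in both media. Anxa3, an annexin that binds membranes in the presence of calcium, was at 221 in control cells with LIF against 23.1 in Akt cells, and at 1034 and 81.5 without it. Its limma log2 difference was -3.46 ± 0.33 (SE), with an adjusted p of 0.00253. Anxa1, a related annexin, read 303 and 80.4 with LIF. S100a6, a small calcium-binding protein, read 1107 and 387 with LIF and 2442 and 285 without it. Cdh2, N-cadherin, was at 86.2 in control cells and at the floor in Akt cells, at least 5.46-fold lower. For all 4 genes, both Akt arrays were again below both control arrays, and the line term passed the limma threshold, with adjusted p-values from 0.00253 to 0.0486. Sfn, the 14-3-3 protein sigma, read 129 and 27.6. Cldn7, a tight junction claudin, was at 79.9 and at the floor. Of 45 measured genes for matrix, integrins and adhesion, 4 passed 2-fold upward and 5 downward, and the median was 0.06. These are 8.89% and 11.1%, against 3.5% and 3.64% of all measured genes. All 5 of the lower ones were also at least 2-fold lower without LIF.

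Differences in the opposite direction included genes of the ATF4 amino acid response. ATF4 is a transcription factor whose translation increases when the initiation factor eIF2 is phosphorylated, and its targets make, import or charge amino acids. Of 38 measured genes on that list, 15 were at least 2-fold higher in Akt cells (39.5%, against 3.5% of all measured genes) and 0 were lower. All gene lists here were chosen with earlier results of these data known, so these counts too are a description. The median over the 38 was 0.79 on the log2 scale, with a range of 0.63 to 0.92 over the alternatives.

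The list holds regulators and enzymes. Nupr1, a small stress-induced nuclear protein, was at the floor in control cells and at 252 in Akt cells, at least 16.0-fold higher, and without LIF it was at the floor and at 19.5. Atf5, a transcription factor of the ATF4 family, had intensities of 33.9 and 252 with LIF and of 36.8 and 35.3 without it. Trib3, a pseudokinase induced by ATF4, read 30.3 and 182 with LIF, and 15.8, the floor, and 27.5 without it. Each of these was high on the array of Akt cells with LIF and low on the other 3. Ddit3, the stress-induced factor CHOP, was at 82.0 in Akt cells with LIF and at the floor on the other 3 arrays, at least 5.20-fold higher. Cebpb, a bZIP factor that can pair with ATF4, was 5.45-fold higher with LIF at 296 against 54.3, and it stood at 158 and 171 without LIF. Ddit4, which restrains the mTOR complex, read 339 and 900.5.

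The other members past 2-fold were mainly enzymes. Cars, the cysteinyl-tRNA synthetase, was at 80.0 in control cells and 366 in Akt cells, 4.58-fold higher. Nars, Mars1 and Aars, which charge the tRNAs for asparagine, methionine and alanine, were 2.61-, 2.14- and 2.34-fold higher. Psph, the last enzyme of serine synthesis, read 129 and 393, and Mthfd2, a mitochondrial folate enzyme, read 492.5 and 1156. Asns, asparagine synthetase, read 602 and 1235, and Aldh18a1, which starts proline synthesis, read 20.6 and 52.5. The last member past 2-fold was Herpud1, a protein of endoplasmic reticulum degradation, at 52.4 and 121. Atf4 itself was 1.97-fold higher, at 458 against 232, and Psat1, another serine synthesis enzyme, 1.92-fold higher. A pair of amino acid transporters went the other way, Slc7a3 with a log2 difference of -0.71 and Slc38a2 with -0.70.

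Without LIF this group looked different. Of the 15 higher genes, 1 (Ddit4) was at least 2-fold higher in Akt cells without LIF, where the background was 5.87%, and the median of the 15 was 0.32. None of the 38 passed the limma line term after adjustment, and 12 had an unadjusted p under 0.05, all as higher. The difference of the line effect between media was not tested, because each combination has 1 array. The unfolded protein and heat shock response shares some regulators with ATF4. On its list, 2 of 26 genes were at least 2-fold higher, Herpud1 and Hmox1 (7.69%, against 3.5% of all measured genes). The median was -0.12. Hspa5, the main chaperone of the endoplasmic reticulum, read 1173 in control cells and 858 in Akt cells. Kdelr3, a receptor that returns proteins to the endoplasmic reticulum, had the largest upward difference among genes above the floor on both arrays, at 58.4 and 437, but its probe set is of a kind that can share probes between related transcripts.

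The ATF4 response element, searched as TGATGNAA on both strands in the same windows, was present in 4 of 13 of the higher genes that had a window (Nupr1, Aars, Asns and Herpud1) and in 3 of 17 other measured members. In comparison, 2.47% of 4779 measured genes and 3.91% of 27025 genes held it. ATF4 targets are often recognised by this element, so here too the list and the motif are not independent. The 4 sequences are shown because they carry the element in the genes described above, with the match in capitals and the strand of the gene read 5′ to 3′. In 3 of them the match is on the opposite strand, so that it reads as the reverse complement. Nupr1 is on the minus strand at chr7:126625543-126625610, Aars on the plus strand at chr8:111033700-111033767, Herpud1 on the plus strand at chr8:94386287-94386354 and Asns on the minus strand at chr6:7693210-7693262, all in GRCm38.p6.
Nupr1: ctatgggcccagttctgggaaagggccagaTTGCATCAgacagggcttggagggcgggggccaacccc
Aars: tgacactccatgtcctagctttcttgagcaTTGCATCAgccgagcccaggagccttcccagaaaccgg
Herpud1: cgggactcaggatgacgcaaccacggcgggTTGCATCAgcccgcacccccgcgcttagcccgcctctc
Asns: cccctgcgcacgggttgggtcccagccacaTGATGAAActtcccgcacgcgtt
Nupr1, Aars and Herpud1 hold the same 8 letters, TTGCATCA, between 112 and 103 bases before the start, and the match in Asns lies from 23 to 16 bases before it. No binding was measured in this series.

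**Figure D3:**
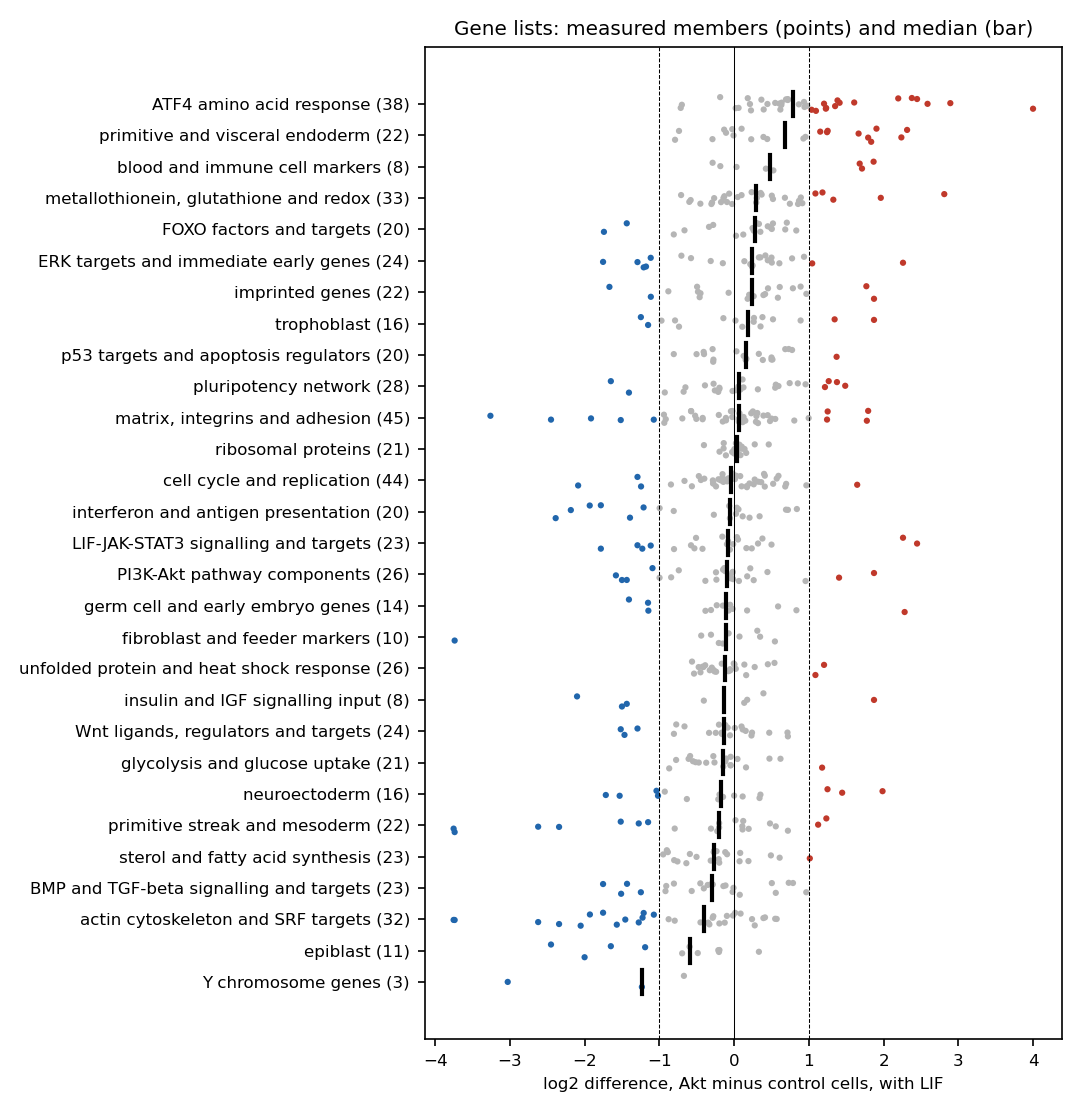
Log2 difference of Akt minus control cells with LIF for each measured member of the gene lists (points) with each list's median (bar). The members of the ATF4 list lie mostly to the right with a median of 0.79, and the actin and SRF list, chosen after the values were seen, has 13 members left of the 2-fold line.

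Genes of primitive and visceral endoderm, the extraembryonic tissue that forms next to the epiblast, included members at higher levels in Akt cells. Of 22 measured members, 9 were at least 2-fold higher (40.9%, against 3.5% of all measured genes) and 0 were lower, and the median was 0.68. Many of these were near the floor: the median of the 17 members above the floor on both arrays was 0.23, and over the alternatives the list median ranged from 0.22 to 0.80. Among the transcription factors, Gata4 was at the floor in control cells and at 59.0 in Akt cells, and Sox17 at the floor and at 56.2. Sox7 read 21.1 and 47.0. Gata6, which starts the endoderm program, was at the floor and at 30.6, at least 1.94-fold higher.

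Among basement membrane and secreted products of endoderm, some were at higher levels and others were not. The laminin chains Lamb1 and Lamc1 differed by -0.11 and 0.23 on the log2 scale, the matrix protein Sparc by -0.02 and the coagulation inhibitor Tfpi by -0.29. Lama1, a laminin chain, was at 51.5 in control cells with LIF against 178 in Akt cells, and at the floor and at 92.3 without it, with a limma adjusted p of 0.0287. Apoe, a lipid carrier, read 453 and 1436 with LIF and 736 and 484 without it. Col4a1 and Col4a2, the collagen chains of basement membranes, were 2.37- and 2.38-fold higher with LIF and -0.30 and -0.05 apart on the log2 scale without it. Pdgfra, a growth factor receptor of primitive endoderm, was at the floor and at 74.4, while a second probe set gave a log2 difference of 0.68. Cubn, an endocytic receptor of visceral endoderm, was at the floor and at 78.5 by 1 probe set, while the other was near or at the floor on both arrays, at 17.1 and 15.8, and gives no direction. Of the 9, 3 were at least 2-fold higher without LIF too (Cubn, Lama1 and Sox17). The later visceral endoderm genes Ttr, Apoa1, Apob, Hnf4a and Foxa2 were at the floor on both arrays with LIF. Others on the list, Afp, Ihh and Cited1, were above the floor on both and did not pass 2-fold. Dab2 differed by 0.93 on the log2 scale, while other probe sets for it gave 0.28 and, with control cells at the floor, 0.33. The lowest log2 difference on the list was -0.79.

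The core factors of the undifferentiated state were close between the lines. Pou5f1 read 491 in control cells and 612 in Akt cells, Nanog 1318 and 1398, and Sox2 2239 and 2330, and none of them differed by more than 0.32 on the log2 scale. Zfp42, a zinc finger marker of undifferentiated cells, read 1219 and 1784. Over 28 measured genes of the pluripotency network, 4 passed 2-fold upward and 2 downward, and the median was 0.07. These are 14.3% and 7.14%, against 3.5% and 3.64% of all measured genes.

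The 4 higher genes are factors of the naive state that LIF medium maintains, but other factors on the list did not pass 2-fold. Klf4 and Klf5 stayed under it, Nr5a2 differed by -0.02 on the log2 scale, and Esrrb was at the floor on both arrays with LIF. Nr0b1, a nuclear receptor that represses transcription, read 329 and 923 with LIF, and 15.8, the floor, and 165 without it. Its limma adjusted p for the line was 0.0487. Tfcp2l1 read 312 and 750.0 with LIF, while a second probe set gave a log2 difference of 0.83. Klf2 was 2.32-fold higher at 171 against 73.5, and Tbx3 was 2.59-fold higher at 75.2 against 29.0. In contrast, Dppa3, a maternal factor present in a fraction of stem cells, was 2.65-fold lower, and Foxd3 was at 49.5 in control cells and at the floor in Akt cells.

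Some genes of the epiblast, the tissue that gives rise to the embryo proper, were lower with LIF. Of 11 measured, 4 passed 2-fold downward (36.4%, against 3.64% of all measured genes) and 0 upward. The median was -0.60 and ranged from -0.86 to -0.20 over the alternatives. It was -0.35 over the 8 members above the floor on both arrays. Second probe sets gave 0.43 for Zic2 and -1.81 for Lef1, against -0.60 and -0.20, each with 1 array at the floor. The 4 lower genes were Cdh2, Foxd3, Pim2 and Pou3f1, a POU factor that was at 36.0 in control cells and at the floor in Akt cells. Cdh2 and Foxd3 were at the floor in Akt cells too. Pim2, a serine/threonine kinase, read 241 and 60.2 with LIF but 60.4 and 350.0 without it. A second Pim2 probe set read 31.7 in control cells with LIF and was at the floor on every other array. Dnmt3a, a de novo DNA methyltransferase, read 206 and 127 with LIF and 36.6 and 343 without it. The list's median without LIF was 0.40. Of the 4 lower genes, 1, Cdh2, was at least 2-fold lower without LIF too.

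Signals downstream of LIF showed no common direction. Of 23 measured genes of LIF, JAK and STAT3, 2 were at least 2-fold higher (Cebpb and Fos) and 4 lower (Irf1, Myc, Tyk2 and Ier3). These are 8.7% and 17.4%, against 3.5% and 3.64% of all measured genes. The median was -0.08 and turned to 0.01 with scaling on the hybridization controls. Socs3, the feedback inhibitor that STAT3 induces, read 262 in control cells and 181 in Akt cells, and Stat3 itself differed by 0.24 on the log2 scale. Fos, an immediate early gene, read 69.0 and 330.2. Myc, a growth regulator that LIF induces, read 105 and 42.9, and Mycn, its relative in stem cells, read 858 and 202. Without LIF Mycn was at 227 in control cells and 465 in Akt cells.

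Of the 4 inhibitor of differentiation genes, known as targets of BMP signalling, 3 were at least 2-fold lower with LIF. Id1 read 207 and 76.5, Id2 1328 and 559, and Id3 227 and 79.6. Id4 read 32.4 and 46.0, a log2 difference of 0.50. Without LIF, Id2 was lower in Akt cells by 1.07 on the log2 scale, while Id1 and Id3 differed by 0.05 and 0.51. Over 23 measured genes of BMP and TGF-beta signalling, 4 passed 2-fold downward (17.4%, against 3.64% of all measured genes) and 0 upward. The median was -0.30.

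Components around Akt itself were also examined. Of 26 measured genes of the PI3K-Akt pathway, 2 were at least 2-fold higher and 4 lower. These are 7.69% and 15.4%, against 3.5% and 3.64% of all measured genes. The median of -0.09 turned to 0.02 with scaling on the hybridization controls. Igf1r, the receptor for insulin-like growth factors, was 2.83-fold lower at 36.8 against 104 with LIF and read 263 and 52.2 without it, and its line term passed the limma threshold with an adjusted p of 0.0487. Irs2, the adaptor that couples that receptor to PI3K, was at 42.7 in control cells and at the floor in Akt cells, with 138 and 24.8 without LIF, and its limma adjusted p was 0.0516. Pik3r2, a regulatory subunit of PI3K, was at least 2.99-fold lower with LIF and differed by 0.23 on the log2 scale without it. Both Igf1r and Irs2 were lower on each Akt array than on each control array.

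The higher pair were a ligand and a phosphatase. Igf2, an insulin-like growth factor, read 254 in control cells with LIF against 930.1 in Akt cells. Inpp5d, the SHIP1 phosphatase that removes a phosphate from the lipid product of PI3K, read 76.1 and 201 with LIF, and 15.8, the floor, and 83.6 without it. Tcl1, a coactivator of Akt present in stem cells, was 1.94-fold higher at 200.3. Igfbp3, which binds insulin-like growth factors outside the cell, read 177 and 41.3, and 979 and 149 without LIF. Its second probe set was near or at the floor with LIF, at 18.8 and 15.8, and without LIF it read 365 in control cells and was at the floor in Akt cells.

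FOXO factors are inactivated by Akt, so their targets were listed separately. Of 20 measured, 0 were at least 2-fold higher and 2 were lower (10%, against 3.64% of all measured genes). The 2 were Irs2 and Gadd45b, a stress-induced gene that read 115 and 34.5. A second probe set of Gadd45b gave -0.17 on the log2 scale. The list's median was 0.28, opposite in sign to its called members.

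Some interferon-induced genes were lower in Akt cells. Of 20 measured genes for interferon response and antigen presentation, 6 were at least 2-fold lower (30%, against 3.64% of all measured genes) and 0 higher. All 6 were at least 2-fold lower without LIF as well, where 8.12% of all measured genes were. The list's median was -0.06 and turned to 0.05 with scaling on the hybridization controls, so the difference was carried by a few genes. Gbp2b and Gbp2, guanylate-binding proteins induced by interferon gamma, were at 82.5 and 71.7 in control cells with LIF and at 662 and 518 without it, and at the floor on both Akt arrays. Irf1, a transcription factor that drives such genes, read 109 and 31.6 with LIF and 229.8 and 52.7 without it. Irgm1, an interferon-induced GTPase, was at 60.2 and at the floor with LIF. These 4 passed the limma line term with adjusted p-values from 0.0235 to 0.0357. Ltb, a cytokine of the tumour necrosis factor family, was at 81.9 and 188 on the control arrays and at the floor on both Akt arrays.

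A minority of metal-binding and detoxifying genes were higher in Akt cells. Of 33 measured genes for metallothionein, glutathione and redox control, 5 passed 2-fold upward (15.2%, against 3.5% of all measured genes) and 0 downward, and the median was 0.30. Mt1, a metallothionein that binds zinc and copper, read 647 and 2519 with LIF and 50.9 and 2172 without it, with a limma log2 difference of 3.69 ± 0.64 (SE) and an adjusted p of 0.0444. Mt2 read 1685 and 3171 with LIF, 1.88-fold higher, and 284 and 3004 without it. In both metallothioneins the 2 Akt arrays stayed close to each other while the control level without LIF was far below that with it. Ephx1, the microsomal epoxide hydrolase, was at the floor and at 111 with LIF. Srxn1, sulfiredoxin, read 23.4 and 58.6.

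Some of the largest single differences belonged to none of these groups. Aard, a protein of little known function, read 132 and 719 with LIF and 33.9 and 165 without it, with a limma adjusted p of 0.0183. Cpt1a, which admits fatty acids to mitochondria for oxidation, read 166 and 587 with LIF and 24.6 and 209 without it, with an adjusted p of 0.0262. Akr1b8, an aldo-keto reductase, and Tiparp, an ADP-ribosyltransferase, were each 3.23-fold higher with LIF, with adjusted p-values of 0.034 and 0.0416. All 4 were higher in Akt cells in both media. Dll1, a Notch ligand, read 19.4 and 76.8 with LIF, and Fbp2, the muscle form of fructose bisphosphatase, was at the floor and at 77.2. Their limma adjusted p-values were 0.0487 and 0.0287.

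Other large differences with LIF were under 2-fold without it. Traf3ip2, an adaptor of interleukin-17 receptors, read 30.7 and 194 with LIF and 31.6 and 37.5 without it. Adgrd1, an adhesion G protein-coupled receptor, read 42.5 and 231 with LIF, and Hexa, a lysosomal hexosaminidase subunit, 41.2 and 165. Stra8, a retinoic acid-induced gene of meiotic germ cells, was at the floor and at 76.7. Kcnk1, a potassium channel, was 11.9-fold lower with LIF, at 27.2 against 323, and 1.94-fold lower without it. Slc27a2, a fatty acid transporter, read 174 and 19.8 with LIF and 25.5 and 48.1 without it. Pus1, a pseudouridine synthase, read 124 and 16.1 with LIF and 61.6 and 70.5 without it. Slc6a15, an amino acid transporter, and Esrp1, an epithelial splicing regulator, were 4.88- and 4.41-fold lower with LIF and differed by -0.11 and -0.01 on the log2 scale without it. Nexmif was at 92.0 in control cells with LIF and at the floor on the other 3 arrays.

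The comparison without LIF shares no array with the one described here, so the overlap of their lists could be counted over 5689 genes measured in both media. Of 201 genes at least 2-fold higher with LIF (3.53%), 45 were also at least 2-fold higher without it, which is 22.4% of the first list and 12.9% of the 349 higher without LIF (6.13%). Of 212 lower with LIF (3.73%), 83 were lower in both, 39.2% of the first list and 18.8% of the 442 lower without LIF (7.77%). Another 7 genes were higher with LIF and lower without it, and 16 were lower with LIF and higher without it. Direction alone was shared by 67.7% of the genes higher with LIF, against 56.2% of all genes above 0 without LIF, and by 67.5% of those lower, against 43.7% of all genes below 0. The spread of the log2 differences over the 5027 genes that exceeded the floor everywhere was wider without LIF, an SD of 0.71 against 0.53.

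**Figure D4:**
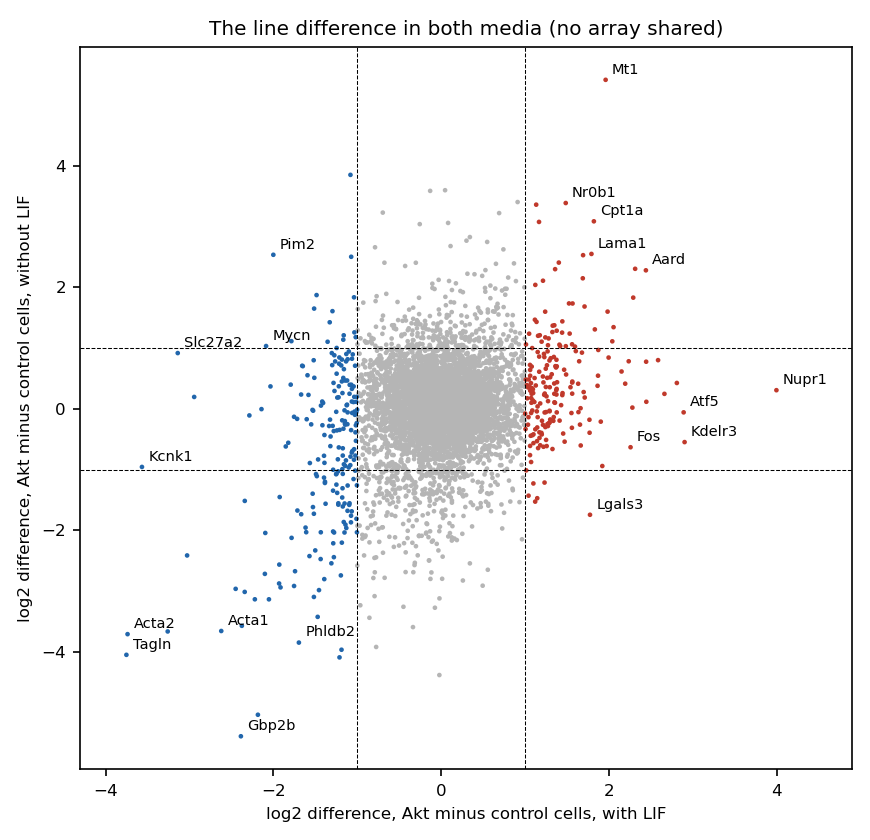
Log2 difference of Akt minus control cells without LIF (vertical) against that with LIF (horizontal) for genes measured in both media, with dashed lines at 2-fold and colour for genes past 2-fold with LIF. Tagln, Acta2 and Gbp2b lie at the lower left, Mt1 and Aard at the upper right, and Nupr1, Atf5 and Kdelr3 near 0 on the vertical axis.

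Several lists had few genes past 2-fold, beside 3.5% higher and 3.64% lower of all measured genes. Ribosomal protein genes had 0 of 21 past 2-fold and a median of 0.04. Glycolysis and glucose uptake had 1 of 21 higher (4.76%), Pfkp, a phosphofructokinase that was 2.26-fold higher, and a median of -0.15. Sterol and fatty acid synthesis had 1 of 23 higher (4.35%), Scd1, a fatty acid desaturase at 236 against 117, and a median of -0.26. Of 44 measured cell cycle and replication genes, 1 was at least 2-fold higher (2.27%), the retinoblastoma gene Rb1. Another 3 were lower (6.82%), namely Mycn, Myc and Ccne1. The p53 list had 1 of 20 higher (5%), Mdm2, the ubiquitin ligase of p53, at 877 against 339.

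Many markers of other cell types were at the floor. Of 19 fibroblast and feeder markers on the array, 9 were at the floor on both arrays with LIF, among them Col3a1, Lum, Postn and Pdgfrb. Of the 10 measured, 1, Acta2, was at least 2-fold lower (10%, against 3.64% of all measured genes). Their summed intensity came to 636 and 497 in control and Akt cells. That sum includes Acta2, which alone was at 211 and at the floor of 15.8, a larger fall than that of the sum. Of 15 blood and immune markers, 7 were at the floor on both, including Ptprc, Cd3e and Lyz2. Of the 8 measured, 3 were at least 2-fold higher (37.5%, against 3.5% of all measured genes), namely Zap70, Laptm5 and Cd68. Laptm5 read 185 in control cells and 606 in Akt cells. A second probe set for Zap70 gave a log2 difference of 0.84, with control cells at the floor. The blood and immune list summed to 429.7 and 1066 in control and Akt cells. The part of such cells in the results was not tested. For mesoderm, 7 of 22 measured genes passed 2-fold downward (31.8%, against 3.64% of all measured genes) and 2 upward (9.09%, against 3.5%). Of the lower 7, 5 (Acta1, Acta2, Cnn1, Cnn2 and Tagln) are the contractile genes described above. The other 2 were Eomes, a T-box factor at 35.0 and at the floor, and Wnt3, a ligand needed for the primitive streak, at 75.1 and 26.2.

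The chromosomes were examined because cultured stem cells can gain or lose them. Eif2s3y, a translation factor gene of the Y chromosome, read 135 in control cells with LIF against 16.5 in Akt cells, and 84.1 and the floor without it, with a limma adjusted p of 0.0121. Uty, another Y-linked gene, was at 37.1 in control cells with LIF and at the floor on the other 3 arrays, while Kdm5d and Sry were at the floor on both arrays with LIF. So 2 of 3 measured Y-linked genes were at least 2-fold lower in Akt cells with LIF (66.7%, against 3.64% of all measured genes). Of the 2 that were measured without LIF too, 1 was at least 2-fold lower there. The Eif2s3y probe set is also of a kind that can share probes between related transcripts. Over the other 20 chromosomes the median log2 difference with LIF ran from -0.18 to 0.08, and without LIF from -0.02 to 0.16. The lowest with LIF was chromosome 13, whose median without LIF was -0.02.

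**Figure D5:**
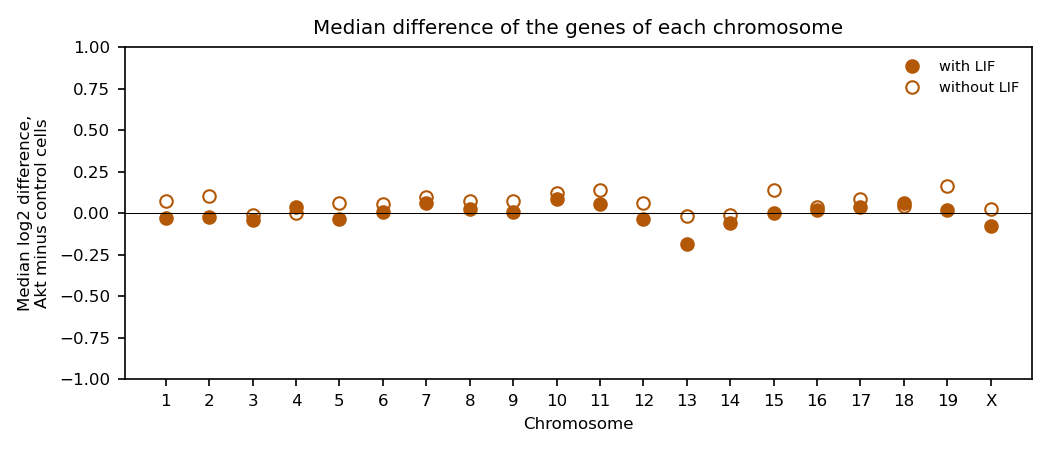
Median log2 difference of Akt minus control cells per chromosome, with and without LIF, over genes that exceeded the floor everywhere. All medians lie between -0.18 and 0.16, and chromosome 13 is lowest with LIF.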

How the data were processed

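Total RNA of 4 samples was hybridised to Affymetrix mouse arrays, 1 array for each combination of line and medium. The values deposited by the authors are intensities on a linear scale with 1 decimal, 1 per probe set. What software made them, and any scaling it applied, is not stated in the labels or file headers used here. The 2% trimmed means of the deposited intensities ran from 80.3 to 121, a ratio of 1.51, so the arrays were put on a common scale.

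Of 12488 probe sets, 66 array controls were left out. The platform annotation gave 1 gene symbol to 10833 of the other 12422, several to 396 and none to 1193, and 10817 symbols were updated through the RefSeq gene table of GRCm38.p6. Intensities were normalized by quantiles (limma 3.58.1, R 4.3.3), floored at the 40th percentile and taken as log2 values. Each gene was represented by its brightest probe set, by mean log2 value.

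A difference was counted from 2-fold upward. The line term came from limma (lmFit, then eBayes), with two-sided p-values adjusted by the Benjamini-Hochberg method over 6258 genes, with 1 residual and 8.69 prior degrees of freedom. Its p-values measure only the spread between these 4 arrays, since no label describes separate cultures. The fit was tested on simulated data.

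The comparison and 27 gene lists were chosen with earlier results of these data known, and 2 further lists (actin and SRF, insulin and IGF) after the values used here had been seen. Genes were named by a rule: the 15 highest and 15 lowest differences, the 6 largest lower limits each way, list members past 2-fold with up to 4 others per list, the 10 smallest adjusted p-values of the line term each way, and Akt1 and Akt2. An item withheld from this text is not reported here. Other members are given to complete a group. Alternatives were the 2% trimmed mean, hybridization controls, cyclic loess, scaling the 2 arrays with LIF alone, floors at the 20th and 60th percentiles, other choices of probe set, an intensity trend and no LIF term.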

Additional observations from a re-analysis of the deposited data

Results flagged for a closer look

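For 5 named genes the difference between the lines was at least 2-fold with LIF and at least 2-fold in the opposite direction without it. The values below are the log2 difference of Akt minus control cells with LIF minus the same difference without LIF. With 1 array for each combination, the difference between the media was not tested for any of them.

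Pim2, a survival kinase, had the value -4.54, being 4.00-fold lower in Akt cells with LIF and 5.8-fold higher without it. A second Pim2 probe set read 31.7 in control cells with LIF and was at the floor on every other array, so it did not show the higher level without LIF. Mycn, the stem cell member of the Myc family, had -3.12, with intensities of 858 and 202 with LIF and 227 and 465 without it in control and Akt cells. Ccne1, cyclin E1, had -2.25, with 424 and 179 with LIF and 185 and 370.45 without it. In these 3 genes, by the brightest probe set of each, the control level was lower without LIF and the Akt level was higher without LIF.

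Lgals3, the sugar-binding protein galectin-3, had 3.52, with 157 and 536 with LIF and 380.1 and 113 without it. Snai1, a repressor of E-cadherin, had 2.45, at the floor and at 37.1 with LIF and at 53.6 and 23.1 without it. In these 2 the control level was higher without LIF and the Akt level was lower.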

How the results depend on the processing

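No paired analysis was possible because each group has 1 array and no replicate numbers to block on; the line term itself sets the lines against each other within each medium. The main limits are the single array a side, the unknown processing before deposit, and the floor, which decides how many dim genes are counted. Moving it from the 40th to the 20th percentile changed the 208 higher and 216 lower genes with LIF to 477 and 526, and the 45 higher and 83 lower in both media to 99 and 158. At the 60th percentile these were 109, 105, 20 and 37. The other settings kept the 4 counts within 1.5 times.

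The limma line term called 10 genes higher and 29 lower. These became 1 and 10 with the 2% trimmed mean, 1 and 16 with the lower floor, and 25 and 52 with an intensity trend. The counts were 0 and 3 with the mean of all probe sets, and 16 and 40 with only plain _at probe sets. They were 0 and 0 with the hybridization controls, with the higher floor and without the LIF term. In that last model 120 and 143 genes had an unadjusted p under 0.05. Of the 10 and 29, all were called again under cyclic loess and with the trend, and 0 and 11 with the lower floor. The cause of these losses was not tested.

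Among 130 named genes, 945 of 1011 alternative values were rated the same. Genes past 2-fold then kept direction and size, and those under it, such as Akt1, did not pass it in their direction. Genes not measured under a setting are left out, so 110 were compared at the 60th percentile floor and 121 with plain _at probe sets. Another 65 values kept only direction, and 1 changed sign, Cubn at -0.12 on the log2 scale with plain _at probe sets. That setting replaces the probe set used here by one at 17.1 in control cells and at the floor in Akt cells, so the sign is set by the floor and shows no reversed direction.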

Other observations

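Early response and growth signal genes were mixed. Of 24 measured ERK targets and immediate early genes, 2 were at least 2-fold higher, Fos and Egr1, an early growth response factor at 145 against 70.4, and 5 were lower, with a list median of 0.24. Dusp6, a phosphatase that ERK signalling induces, was among the lower ones, at 117 against 266. For Wnt ligands, regulators and targets, 3 of 24 were at least 2-fold lower (12.5%, against 3.64% of all measured genes) and 0 higher. The median of -0.14 came to 0.00 with scaling on the hybridization controls. The insulin and IGF list had 1 of 8 higher (12.5%) and 3 lower (37.5%), against 3.5% and 3.64% of all measured genes. Its median of -0.13 changed sign with the scaling and with the floor.

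Lineage lists outside endoderm and mesoderm had members in both directions. Neuroectoderm had 3 of 16 higher (18.8%, against 3.5% of all measured genes) and 4 lower (25%, against 3.64%). Mapt, the microtubule protein tau, read 45.6 in control cells and 124 in Akt cells, and Ncam1, a neural adhesion molecule, 32.1 and 76.4. A second probe set for Ncam1 gave a log2 difference of 0.18. Nes, the intermediate filament nestin, read 111 and 38.3, and Gap43, a growth cone protein, 74.2 and 22.6. Trophoblast genes had 2 of 16 higher and 2 lower, 12.5% each, against 3.5% and 3.64% of all measured genes. Germ cell and early embryo genes had 1 of 14 higher (7.14%) and 3 lower (21.4%), against the same shares of all measured genes.

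Among 22 imprinted genes, which are expressed from 1 parental copy, 2 were at least 2-fold higher, Igf2 and Sgce, at 78.7 against 23.1. Another 2 were lower, Ndn, at 40.6 against 129, and Magel2, at the floor against 34.1. Each pair was 9.09% of the list, against 3.5% of all measured genes higher and 3.64% lower. Ndn was lower without LIF as well, at 92.3 against 308, while Magel2 was at 34.1 in Akt cells and 19.4 in control cells without LIF.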
